A study of Homo sapiens with 12 samples.

Results

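The mature microRNAs (miRNAs) hsa-miR-103a-3p and hsa-miR-107, called miR-103a-3p and miR-107 here, were followed by SLAMseq in Huh7 cells, a human hepatocellular carcinoma line. They were taken by name, as 2 of the 2652 mature miRNAs counted in each of 12 libraries. The 3 treatments of 4 h were compared with 4 libraries each: Control (DMSO without 4SU), DMSO (DMSO with 500 µM 4-thiouridine, 4SU) and PlaB (pladienolide B with 500 µM 4SU). Replicates 1 to 4 are the experiments A to D, which the study describes as independent, each with all 3 treatments. DMSO replicates 1 and 2 each combine an original, a re-prepared and a re-amplified sequencing run. The sample labels give the dose of PlaB as 500 µM, which is also the concentration of 4SU. The methods give 1 µM unless otherwise indicated, and the study states that it used 1 µM for 4 h after its first tests of dose and time. The labels and the study thus disagree on the dose of PlaB. The libraries held between 1522210 and 3880241 reads on miRNAs.

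4SU is built into RNA made during the treatment and is read after chemical conversion as a T>C change, so that the T>C conversion rate, the share of covered T positions read as C, marks newly made miRNA. PlaB inhibits SF3B1, a component of the U2 snRNP that recognises the branch point of introns. A miRNA within an intron is cut from its host transcript as a hairpin by the Microprocessor (DROSHA and DGCR8), trimmed by DICER1 and loaded into an Argonaute protein. miR-103 and miR-107 lie in introns of the pantothenate kinase genes PANK1, PANK2 and PANK3, whose enzymes catalyse the first step of coenzyme A synthesis. In liver these miRNAs are known for their influence on insulin sensitivity.

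The 2 mature strands are shown first because they share everything but 1 base, which sets how well their reads can be told apart. The RefSeq sequences (GRCh38.p14) are printed with the seed, bases 2 to 8, in capitals.

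miR-103a-3p: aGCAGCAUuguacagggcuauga

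miR-107: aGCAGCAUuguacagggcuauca

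The strands are identical at 22 of 23 positions. Counted from 1 at the 5′ end, the difference from miR-103a-3p to miR-107 is G22C, marked here by the capital.

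miR-103a-3p: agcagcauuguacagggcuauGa

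miR-107: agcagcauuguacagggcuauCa

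Of the 2370 mature miRNA names in the RefSeq table, only these 2 had the seed GCAGCAU, and only these 2 shared the first 21 bases. Both strands have 5 U, at positions 8, 9, 11, 19 and 21, so each intact read offers the same 5 positions to a T>C conversion. The libraries showed 4.96 to 5 covered T positions per read of either miRNA. The last of these positions lies next to the base that differs, and a read that ends there cannot be assigned to 1 of the 2 miRNAs by its sequence. Counts of the less abundant miR-107 are therefore uncertain in this respect.

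miR-103a-3p is encoded by 2 genes and miR-107 by 1. MIR103A1 lies at chr5:168560896-168560973 on the minus strand (GRCh38) in intron 5 of 6 of PANK3, in the sense orientation. MIR103A2 lies at chr20:3917494-3917571 on the plus strand in intron 5 of 6 of PANK2, and MIR107 at chr10:89592747-89592827 on the minus strand in intron 5 of 6 of PANK1, both also sense to the host. The GENCODE version 44 annotation places the 3 hairpins 419, 443 and 369 bases downstream of the 5′ splice site in introns of 2235, 1620 and 4419 bases, and no exon of any host transcript overlaps them. They begin 18395, 28107 and 52415 bases downstream of the transcription start of the canonical host transcript. The hairpins are shown with the mature 3p strand in capitals, since the identical strand from PANK3 and PANK2 makes every complete miR-103a-3p read fit more than 1 place in the genome.

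MIR103A1: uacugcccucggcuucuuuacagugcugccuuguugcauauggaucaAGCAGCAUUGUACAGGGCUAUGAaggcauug

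MIR103A2: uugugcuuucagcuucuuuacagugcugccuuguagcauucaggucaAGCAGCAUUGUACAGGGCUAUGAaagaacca

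MIR107: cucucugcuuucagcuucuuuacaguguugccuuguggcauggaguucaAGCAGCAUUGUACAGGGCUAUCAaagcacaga

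The opposite strands of the 2 miR-103a hairpins are listed as separate miRNAs and could show which locus was active, but they were scarcely sequenced. miR-103a-1-5p, from PANK3, had 0 to 12 reads per library and miR-103a-2-5p, from PANK2, 0 to 10, with no T>C conversion in any. miR-103b, annotated on the strand antisense to both miR-103a hairpins, had 0 reads in all 12 libraries. The contribution of PANK3 and PANK2 to miR-103a-3p was thus not measurable.

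In how miR-103a-3p was mapped, 4 libraries stood apart. Reads marked as mapping to several places made up 99.3% to 99.6% of miR-103a-3p reads in 8 libraries, but 9.07% in Control 2, 9.42% in Control 3, 9.93% in DMSO 1 and 11.1% in DMSO 2. All 4 PlaB libraries were of the first kind. DMSO 1 and DMSO 2 are the libraries made from combined runs, and nothing of this kind is stated for Control 2 and Control 3. The share over all miRNAs was 28.1% to 37.2% in the 4 libraries and 36.7% to 41.4% in the other 8. Of the 143 miRNAs in the study's Initial miRNA Dataset (over 100 CPM, the reads of a miRNA scaled to a fixed library total, and listed in MirGeneDB), 8 had a multi-mapping share that was lower by more than 5 percentage points in every one of these 4 libraries than in any other, and miR-103a-3p was one of them. The others, named after their values were seen, were miR-885-5p, miR-365b-3p, miR-24-3p, miR-194-5p, miR-181b-5p, miR-181a-5p and miR-339-5p. miR-107 was not, with 36.3% to 48.4% multi-mapping reads in all 12 libraries. Since miR-107 is encoded by 1 gene, these reads also fitted a place other than that gene. Whether it was a miR-103a gene was not tested, and the counts and rates of miR-107 given here include these reads. The 4 libraries include libraries of 2 treatments only, so results for miR-103a-3p are given with all libraries and without these 4.

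Within Control and within DMSO, the level of miR-103a-3p was lower in the libraries with few multi-mapping reads. As no PlaB library was of this kind, the split and the treatment cannot be told apart for PlaB. Its abundance in Control was 32664, 15477, 17910 and 36755 CPM in replicates 1 to 4. In DMSO it was 21306, 19147, 29267 and 37640 CPM, and in PlaB 34026, 28115, 33994 and 37907 CPM. The 4 lowest of the 12 values are the 4 libraries with few multi-mapping reads. The means for Control, DMSO and PlaB were 25702 ± 10581, 26840 ± 8413 and 33511 ± 4039 CPM (SD, n = 4), with overlapping groups, which made miR-103a-3p the 6th most abundant miRNA in each treatment. The change in read counts was 0.09 on the log2 scale in DMSO against Control (SE 0.28), 0.30 in PlaB against DMSO (SE 0.28) and 0.39 in PlaB against Control (SE 0.28), and none passed the test (edgeR quasi-likelihood, adjusted p = 0.912, 0.921 and 0.891). In the same tests 1.40% of the 143 miRNAs were called higher and 2.80% lower in DMSO than in Control, 0.00% higher and 0.699% lower in PlaB than in DMSO, and 0.00% higher and 3.50% lower in PlaB than in Control. With the replicate block, which pairs the libraries of an experiment, 10.5% were called higher and 6.29% lower in DMSO than in Control, and miR-103a-3p was still not called (edgeR adjusted p = 0.721). With the 4 libraries left out, the 3 changes were -0.026, 0.013 and -0.013 (SE 0.18, 0.15 and 0.15), where 0.00% of the 143 miRNAs were called higher in each comparison and 1.40%, 0.00% and 2.10% lower.

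**Figure D1:**
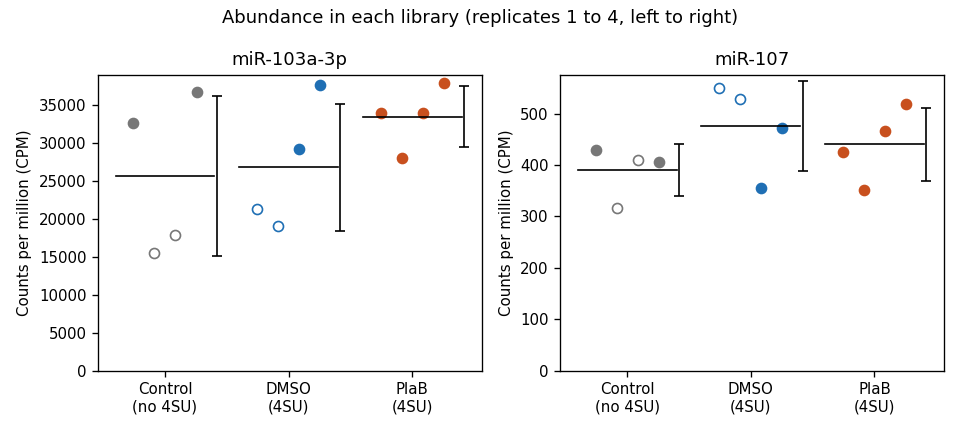
Abundance of miR-103a-3p and miR-107 in each library, in CPM, for Control, DMSO and PlaB. Points are replicates 1 to 4 from left to right, open points are the 4 libraries in which few miR-103a-3p reads were multi-mapping, horizontal lines are means and error bars SD (n = 4). The open points of miR-103a-3p sit between 15477 and 21306 CPM, below all filled points. Those of miR-107 lie on both sides, Control 2 below all filled points, DMSO 1 and DMSO 2 above them and Control 3 among them.

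Within Control, the 2 libraries with few multi-mapping reads had 0.481 times the miR-103a-3p CPM of the other 2 and 3.07 times their T>C conversion rate. Within DMSO the factors were 0.605 for CPM and 1.88 for the rate. The number of T>C conversions, scaled to the library total in the same way (conversion CPM), differed less, by factors of 1.46 in Control and 1.12 in DMSO. Read counts and rates thus moved in opposite directions between these libraries, while the conversions themselves stayed closer. The geometric mean of the CPM factors in Control and DMSO was 0.539 for miR-103a-3p, the 2nd lowest of the 143 miRNAs, whose median was 1.04 (5th to 95th percentile 0.843 to 1.23). Among the other miRNAs with a lower multi-mapping share in these libraries, this mean ran from 0.654 (miR-24-3p) to 1.16 (miR-339-5p). It was 0.895 for miR-885-5p and 1.15 for miR-365b-3p. Their rate factors within DMSO ran from 0.780 (miR-885-5p) to 1.59 (miR-24-3p), with 0.919 for miR-365b-3p. What lowered the multi-mapping share was not tested.

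**Figure D2:**
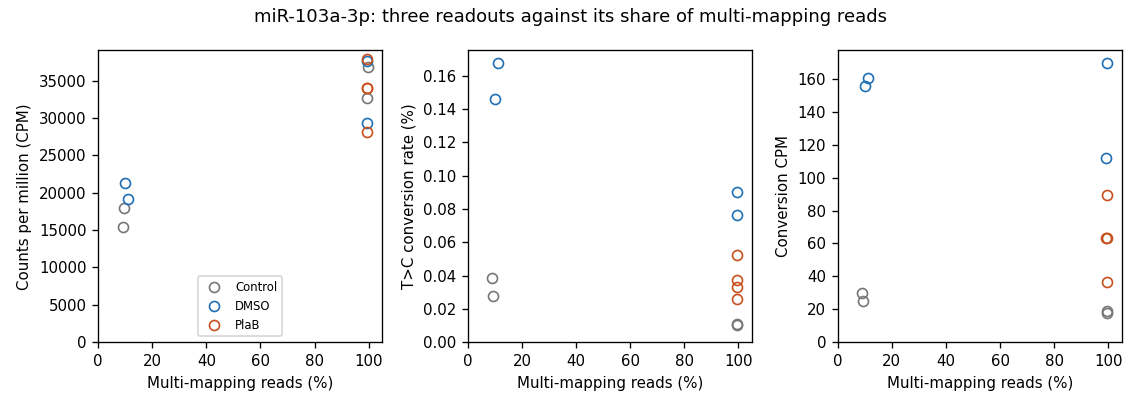
miR-103a-3p abundance (CPM), T>C conversion rate (percent of covered T positions) and conversion CPM (T>C conversions scaled to the library total), each against the percentage of its reads that were multi-mapping, 1 point per library coloured by treatment. The 4 libraries at 9.07% to 11.1% have lower CPM than the 8 at about 99% and, within Control and within DMSO, higher rates, whereas conversion CPM values lie closer together.

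miR-107 was far less abundant. Control libraries held 430, 317, 410 and 406 CPM of it. DMSO libraries held 550, 528, 355 and 472 CPM, and PlaB libraries 426, 351, 467 and 519 CPM. The groups overlapped, and the means of 391 ± 50.5, 476 ± 87.1 and 441 ± 70.7 CPM (SD, n = 4) put miR-107 in places 114, 100 and 99 of 2652. Its read counts changed by 0.31 on the log2 scale in DMSO against Control (SE 0.16), -0.12 in PlaB against DMSO (SE 0.16) and 0.18 in PlaB against Control (SE 0.16), and no change passed the test (edgeR adjusted p = 0.410, 0.998 and 0.891). These values were 0.015, 0.10 and 0.12 without the 4 libraries (SE 0.24, 0.21 and 0.21).

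Set against each other, miR-103a-3p had between 36.3 and 48.9 reads for each miR-107 read in the 4 libraries with few multi-mapping reads, and between 72.8 and 90.5 in the other 8. The 4 PlaB libraries lay between 72.8 and 80.1. The log2 ratio of miR-107 to miR-103a-3p reads averaged -5.95 ± 0.50 for Control, -5.78 ± 0.64 for DMSO and -6.26 ± 0.077 for PlaB (SD, n = 4). The ratio in PlaB minus that in DMSO was -0.47 (exact permutation test, two-sided, p = 0.371). Leaving out the 4 libraries turned it to 0.085, where the smallest p that 4 against 2 libraries allow is 0.133.

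Labelling of miR-103a-3p was read from 2312 T>C conversions on 2281 reads. In Control, without 4SU, 30, 71, 45 and 46 conversions gave rates of 0.0110%, 0.0383%, 0.0277% and 0.0105% of the covered T positions. In DMSO, 603, 525, 227 and 334 conversions gave 0.146%, 0.167%, 0.0764% and 0.0902%. In PlaB, 136, 73, 101 and 121 conversions gave 0.0525%, 0.0262%, 0.0373% and 0.0334%. Every DMSO library was above every Control and every PlaB library, whereas PlaB and Control overlapped because Control 2 and Control 3, both with few multi-mapping reads, reached the PlaB range. For the same ordering, every DMSO library was above every Control library for 70.6% of the 143 miRNAs, every PlaB library below every DMSO library for 46.2%, and every PlaB library above every Control library for 38.5%. Among the 8 other libraries, where all 3 pairs of treatments were separate for miR-103a-3p, the shares were 79.0%, 53.8% and 47.6%.

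With 4SU the T>C conversion rate of miR-103a-3p rose from 0.0219% ± 0.0136 in Control to 0.120% ± 0.0436 in DMSO (SD, n = 4), a ratio of means of 5.48. The change was 2.51 on the log2 scale (SE 0.31) and passed the test (edgeR quasi-likelihood on conversions with covered T positions as offset, adjusted p = 4.33e-10), as did higher rates of 82.5% of the 143 miRNAs. It was 2.95 without the 4 libraries (SE 0.33, edgeR adjusted p = 2.68e-17), and there 59.4% of the 143 were called higher. Exact permutation of the 8 libraries gave p = 0.0286 for the rate, the smallest that 4 against 4 allow, and 0.114 after adjustment over the 24 permutation tests made for the 2 miRNAs. These permutations ignored the pairing by experiment, and in a sign-flip test 4 pairs allow no p under 0.05.

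Under PlaB the rate of miR-103a-3p fell to 0.0374% ± 0.0111 (SD, n = 4), or 0.311 of the DMSO mean. On the log2 scale the change was -1.69 (SE 0.29, edgeR adjusted p = 6.39e-06), and 48.3% of the 143 miRNAs were called lower. When the 4 libraries were left out, the mean in DMSO was 0.0833% and PlaB stood at 0.449 of it, a log2 change of -1.16 (SE 0.25, edgeR adjusted p = 3.4e-05), with 35.0% of the 143 called lower. The fall was therefore called in both sets of libraries and was smaller without the 4. The exact permutation p was 0.0286 (0.114 after adjustment over the 24 tests).

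Taken by experiment, the PlaB rate was 0.360, 0.157, 0.488 and 0.371 of the DMSO rate in A to D, lower in 4 of 4. In A and B the DMSO library was one with few multi-mapping reads, while in C and D both libraries had over 99% multi-mapping reads. In C and D, the abundance of miR-103a-3p in PlaB was 1.16 and 1.01 times that in DMSO.

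Above the unlabelled background, the rate in PlaB was 1.71 times the Control mean, 0.83 on the log2 scale (SE 0.31, edgeR adjusted p = 0.0203), and 53.8% of the 143 miRNAs were called higher. This call was lost when Control 1, Control 4 or PlaB 1 was left out (0.60, 0.56 and 0.62, edgeR adjusted p = 0.0534, 0.119 and 0.0711). By exact permutation, the rates in PlaB and Control gave p = 0.20. In the 8 other libraries PlaB was 3.48 times Control, a log2 change of 1.79 (SE 0.30, edgeR adjusted p = 2.48e-08; 46.2% of the 143 called higher), and every PlaB library was above both remaining Control libraries. The size of this difference thus depended on Control 2 and Control 3.

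Conversion CPM values, which do not use the number of miR-103a-3p reads, separated all 3 treatments. They were 18.0, 29.7, 24.8 and 19.3 in Control, 155, 160, 112 and 170 in DMSO and 89.3, 36.9, 63.4 and 63.3 in PlaB. The means were 22.9 ± 5.38, 149 ± 25.7 and 63.2 ± 21.4 (SD, n = 4), no 2 groups overlapped, and each of the 3 pairs gave an exact permutation p of 0.0286 (0.114 adjusted over the 24 tests). Of the 143 miRNAs, 69.2% had every DMSO library above every Control library on this measure, 44.1% every PlaB library below every DMSO library and 39.2% every PlaB library above every Control library. With the library total as offset, chosen after the data were seen, the log2 changes were 2.70 in DMSO against Control (SE 0.27), -1.24 in PlaB against DMSO (SE 0.25) and 1.45 in PlaB against Control (SE 0.27), and all 3 passed the test (edgeR adjusted p = 1.74e-15, 2.81e-05 and 1.94e-06). The same calls were made for 83.2%, 45.5% and 53.8% of the 143 miRNAs.

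For miR-107 only 17 T>C conversions were seen in all. None fell in any Control library, 0 of 15909 covered T positions, which allows a rate of up to 0.0189%. DMSO held 0, 11, 2 and 0 conversions in replicates 1 to 4, and PlaB 0, 0, 2 and 2. DMSO 2 thus held 11 of the 13 conversions in DMSO, and 2 of 4 DMSO libraries had none. The pooled rates were 0.0472% in DMSO (95% Wilson interval 0.0276% to 0.0807%, 13 of 27541 positions) and 0.0260% in PlaB (0.0101% to 0.0668%, 4 of 15388), and these intervals and limits cover counting error only.

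The pooled rate of miR-107 in DMSO was 2.50 times the Control limit of 3 counts. Counting error on the 13 DMSO conversions is not part of this value, so it is not a lower bound of the rise. The value rested on DMSO 2, without which 2 of 18907 positions gave 0.561 of the Control limit. It was 0.681 without the 4 libraries, so that neither set put DMSO above that limit. The test called miR-107 higher in DMSO than in Control (edgeR adjusted p = 0.0374). This call was lost with the replicate block (edgeR adjusted p = 0.0688), without DMSO 2 (0.261), without any 1 Control library (0.0552 to 0.0684) and without the 4 libraries (0.316). PlaB against DMSO gave -0.83 on the log2 scale (SE 1.31, edgeR adjusted p = 0.630), and without DMSO 2 it was 0.79. A fall of the size seen for miR-103a-3p was not detectable for miR-107 at this depth. PlaB against Control gave no call (edgeR adjusted p = 0.152).

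Had miR-107 been converted at the rate of miR-103a-3p in the same library, 15.5 conversions would have been counted in DMSO 1, where none was, and 14.5 in DMSO 2, where 11 were. In DMSO 3 and DMSO 4 the corresponding numbers were 2.76 and 4.19, against 2 and 0 counted. DMSO 1 and DMSO 2 had few multi-mapping miR-103a-3p reads, and their mean miR-103a-3p rate was 1.88 times that of DMSO 3 and DMSO 4. The multi-mapping share of miR-107 had no such split. The numbers for DMSO 1 and DMSO 2, and the comparison of the 2 rates in DMSO, carry this limit. The rate of miR-103a-3p was higher than that of miR-107 in 4 of 4 DMSO libraries, by a mean of 0.0743 percentage points ± 0.0560 (SD, n = 4), where an exact sign-flip test gave the smallest p that 4 pairs allow, which is above 0.05. It was higher in 2 of 4 PlaB libraries (0.0138 percentage points, exact p = 0.5), where only 0.912 to 1.70 conversions per library would have been counted at the rate of miR-103a-3p. In Control these numbers were 0.395, 1.44, 1.03 and 0.508 in replicates 1 to 4, where no miR-107 conversion was counted. There the rate of miR-103a-3p was higher in 4 of 4 libraries, by a mean of 0.0219 percentage points ± 0.0136 (SD, n = 4). The exact sign-flip test again gave the smallest p that 4 pairs allow. Control 2 and Control 3 carry the same limit as DMSO 1 and DMSO 2, and no Control library alone tells the 2 rates apart.

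Among the 143 miRNAs, neither had a high DMSO rate. That of miR-103a-3p ranked 92 and that of miR-107 120 of 143 from the highest, where the median was 0.187%. The mean of miR-103a-3p was 0.120%, and 0.0833% without DMSO 1 and DMSO 2. These ranks do not compare how fast the miRNAs were made. The study states that this would need a time course and that U content influences labelling. Next to miR-103a-3p in DMSO abundance stood miR-16-5p and miR-26a-5p above and miR-194-5p and miR-7-5p below, and their DMSO rates ranged widely. miR-16-5p had a rate of 0.293% ± 0.0718 and miR-7-5p 0.596% ± 0.122, whereas miR-26a-5p had 0.000637% ± 0.000625 (SD, n = 4). miR-194-5p, also among the miRNAs with a split multi-mapping share, had 0.199% ± 0.0337.

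Divided by the pooled rate of the other miRNAs in the same library, the rate of miR-103a-3p stood on the log2 scale at -0.53 ± 0.82 for Control, -1.23 ± 0.56 for DMSO and -2.07 ± 0.49 for PlaB (SD, n = 4). PlaB minus DMSO was -0.85, which missed the threshold (exact permutation p = 0.0571), and -0.39 in the 8 other libraries. With the median rate of the other miRNAs as the divisor, it was -0.12 (exact permutation p = 0.771), so that a larger fall of miR-103a-3p than of the other miRNAs was not shown. The background-subtracted PlaB/DMSO ratio of the study, (PlaB - Control)/(DMSO - Control) from mean rates, was 0.158 for miR-103a-3p. It was set beside 134 miRNAs with a higher DMSO than Control mean and a ratio both with and without the 4 libraries. Their median was 0.311, and 27 of them were lower than miR-103a-3p. In the 8 other libraries the ratio of miR-103a-3p was 0.367, beside a median of 0.346, with 70 lower. The low position of miR-103a-3p among all miRNAs thus came with the 4 libraries. The same ratio was 0.515 for miR-107, resting on 17 conversions.

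Both miRNAs belong to the miR-15/miR-107 group, which shares the motif AGCAGC near the 5′ end and many targets that act in the cell cycle and metabolism. The sequences show its position, in capitals, at base 1 in miR-103a-3p and miR-107 and at base 2 in the other members.

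miR-103a-3p: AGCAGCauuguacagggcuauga

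miR-107: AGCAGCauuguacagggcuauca

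miR-15a-5p: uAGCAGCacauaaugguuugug

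miR-15b-5p: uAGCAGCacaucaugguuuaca

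miR-16-5p: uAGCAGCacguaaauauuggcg

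miR-424-5p: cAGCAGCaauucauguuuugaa

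miR-503-5p: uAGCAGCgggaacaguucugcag

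Of 10 listed members these 7 were in the Initial miRNA Dataset. miR-195-5p (47.0 to 87.4 CPM) and miR-497-5p (5.65 to 30.1 CPM) were below 100 CPM, and miR-646 had no reads. No read count of the 7 passed the test in any comparison (edgeR and DESeq2), although 2 in DMSO against Control and 1 in PlaB against DMSO had an unadjusted p under 0.05, as had 20 and 4 of all 143. The replicate block called 1 of the 7 higher in DMSO than in Control, beside 10.5% of all 143. With 4SU the conversion rates of all 7 were higher in DMSO than in Control (median log2 change 3.95), beside 82.5% of all 143 (median 3.16). Without the 4 libraries 5 of the 7 were higher, beside 59.4%.

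Under PlaB 3 of the 7 were lower than in DMSO and none was higher, beside 48.3% lower and 0.00% higher of all 143. These were miR-103a-3p, miR-16-5p (-1.39, SE 0.20, edgeR adjusted p = 1.89e-07) and miR-15a-5p (-1.53, SE 0.55, edgeR adjusted p = 0.0218). The call of miR-15a-5p was lost without DMSO 3 (-1.09, edgeR adjusted p = 0.162), PlaB 1 (-1.33, 0.0501) or PlaB 2 (-1.37, 0.0631). miR-15b-5p, from a cluster with a second miR-16 gene in an intron of SMC4, had a rate of 0.123% ± 0.0329 in DMSO and 0.114% ± 0.0199 in PlaB (SD, n = 4) and a log2 change of -0.10 (SE 0.33). The values of miR-424-5p (-1.44, SE 1.08) and miR-503-5p (-2.09, SE 1.11) did not pass the test. The median of the 7 was -1.44, and that of all 143 was -1.23. The 8 other libraries also gave 3 lower and a median of -1.43, where 35.0% of all 143 were lower.

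**Figure D3:**
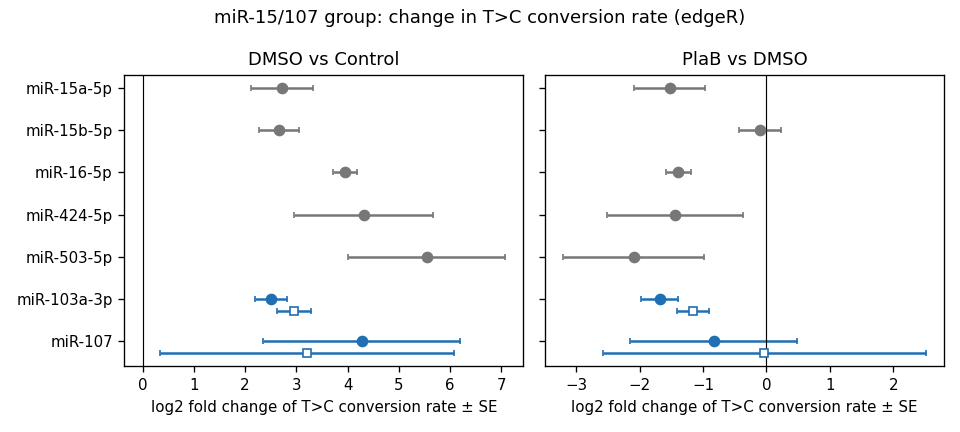
Log2 fold change in T>C conversion rate (edgeR, error bars SE) of the 7 measured members of the miR-15/miR-107 group, for DMSO against Control and PlaB against DMSO. Blue filled points are miR-103a-3p and miR-107, grey points the other members, and open squares the first 2 without the 4 libraries in which few miR-103a-3p reads were multi-mapping. In PlaB against DMSO miR-103a-3p moves from -1.69 to -1.16 without them, and the error bar of miR-107 spans 0. miR-107 and miR-503-5p had 0 conversions in Control, so that their values in DMSO against Control do not measure the rise.

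The study places miR-103a-3p among 43 miRNAs in introns of protein-coding genes. This list was chosen by the study on these same libraries. The choice required labelling in DMSO above Control and left out miRNAs whose mean PlaB rate was below that of Control. Nothing is therefore read from the 43 of 43 called higher in DMSO. The PlaB counts that follow are a description, and nothing is read from how they differ from those of all 143. Under PlaB 23 of the 43 were lower than in DMSO, with a median log2 change of -1.33, beside 48.3% and -1.23 for all 143. Leaving out the 4 libraries, 17 were lower and the median was -1.16, which was also the value of miR-103a-3p, beside 35.0% and a median of -1.18 for all 143. Without DMSO 1 and 2, 14 of the 43 and 30.8% of the 143 were lower.

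Finally, the miRNAs whose abundance varied most like each of the 2 over the 12 libraries were sought, as a description. For miR-103a-3p these were miR-151a-5p (Pearson r of log2 CPM 0.954), miR-24-3p (0.726) and miR-320b (0.690). miR-151a-5p averaged 4016 CPM in the 4 libraries with few multi-mapping miR-103a-3p reads and 7948 CPM in the other 8, and miR-24-3p 14196 and 22571 CPM. For miR-320b the averages were 275 and 350 CPM. These miRNAs were thus also lower on average in the same 4 libraries. Whether the likeness held within the other 8 was not tested. Multi-mapping reads of miR-151a-5p, however, averaged 92.8% in the 4 libraries and 96.2% in the other 8. For miR-24-3p the averages were 37.7% and 99.3%, and for miR-320b 53.0% and 57.5%. miR-107 resembled other miRNAs, miR-455-3p (0.880), miR-96-5p (0.795) and miR-423-5p (0.760), of which under 1% of reads were multi-mapping. miR-455-3p averaged 4651 CPM in the 4 libraries and 4797 CPM in the other 8.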

How the data were processed

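Small RNA of 12 SLAMseq libraries was analysed from 1 deposited table per library. The authors trimmed reads with Trim Galore and used SLAM-DUNK, in an nf-core workflow, to align to GRCh38 and to count over miRBase coordinates of mature miRNAs, without a mapping quality filter and with SNP masking. Since multi-mapping reads were kept, copies of a miRNA share reads. The deposited columns used were counts (reads, T>C conversions, covered T positions, converted reads, multi-mapping reads), CPM and the conversion rate as a fraction, which the authors computed per miRNA. It was checked that CPM and rates follow from the counts.

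The 2 miRNAs and all lists were chosen with earlier results of these data known. Besides them, the text names the other strands of their hairpins, the miR-15/miR-107 group, the 3 miRNAs with the highest r for each and the 2 neighbours above and below miR-103a-3p in abundance.

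In R 4.3.3, edgeR 4.0.16 quasi-likelihood tests were fitted to the Initial miRNA Dataset (143 miRNAs) in all 12 libraries, with TMM factors from all miRNAs for reads and log covered T positions as offset for conversions. Adjustment was by Benjamini-Hochberg, threshold 0.05. The functions were tested on simulated data. Single values were compared by two-sided exact permutation (scipy 1.17.1, 70 labelings), without regard to the pairing by experiment. Shares have 95% Wilson intervals, and a count of 0 a limit of 3 counts. Libraries held 1522210 to 3880241 reads.

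The replicate numbers are the 4 experiments. Deviations of log2 CPM from the treatment mean correlated between libraries of the same number (lowest r 0.274, medians 0.559 to 0.575). Between different numbers the medians were -0.213 to -0.173 and the highest r was 0.287. Deviations from a treatment mean sum to 0, so the negative medians are not separate evidence. A fit with a replicate block was made as an alternative. Others were DESeq2 1.42.0, other filters, size factors and offsets, each library left out, DMSO 1 and 2 left out and, chosen after the data were seen, the 4 libraries with few multi-mapping miR-103a-3p reads left out. Where 2 libraries remain per group, the fit shares its spread with the other groups. Sequences came from RefSeq and loci from GENCODE version 44.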

Additional observations from a re-analysis of the deposited data

How the results depend on the processing

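Of 684 alternative values for 45 results, 647 kept their direction and side of the threshold, moved by less than the replicate SD or, for counts of miRNAs called, stayed within a set fold. By this last rule 34 of the 43 intronic miRNAs called higher in DMSO than in Control, against 43, was taken as kept. The calls for miR-103a-3p conversions in DMSO against Control and PlaB against DMSO held in every alternative fitted, with log2 ranges of 1.98 to 2.95 and -1.89 to -1.16. In PlaB against Control, the call was lost in DESeq2 (0.80), and leaving out each library gave 0.56 to 1.26.

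The miR-107 call in DMSO against Control was lost in DESeq2 (3.30), without a filter on low counts (4.26), with the replicate block (4.09), with 8 libraries compared alone (4.42), without DMSO 1 and 2 (3.20) and without the 4 libraries with few multi-mapping miR-103a-3p reads (3.21), and single libraries left out gave 2.55 to 4.63. With 0 conversions in Control, these log2 values depend on how the fit treats a count of 0 and do not measure the rise. miR-107 did not pass the filter of edgeR's filterByExpr for conversions and has no value there. In PlaB against DMSO its change ran from -1.40 to 0.79 with single libraries left out, and its PlaB/DMSO ratio from 0.294 to 1.27.

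Of the 6 read count changes, none of which was called, 4 changed sign in some alternative, and those of miR-107 in DMSO against Control and PlaB against Control did not. Without the 4 libraries they were -0.026 (miR-103a-3p, DMSO against Control), -0.013 (miR-103a-3p, PlaB against Control) and 0.10 (miR-107, PlaB against DMSO), and without DMSO 1 and 2, -0.015 and 0.072 (miR-103a-3p and miR-107, PlaB against DMSO). Single libraries left out gave -0.13 to 0.30 for miR-103a-3p in DMSO against Control, and -0.23 to 0.080 for miR-15b-5p conversions in PlaB against DMSO.

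Without the 4 libraries, the PlaB minus DMSO difference was -0.0459 percentage points for the miR-103a-3p rate, 0.0326 for its multi-mapping share and 0.085 for the log2 ratio of miR-107 to miR-103a-3p, the miR-107 multi-mapping share differed by -4.50 points between DMSO and Control, and the PlaB/DMSO ratio of miR-103a-3p was 0.367. Without subtraction of Control that ratio was 0.311. Without DMSO 1 and 2, 14 of the 43 intronic miRNAs were lower under PlaB, and 44 of all 143. The causes were not tested. The replicate block ended no other call for the 2 miRNAs. The 4 libraries per treatment and the 17 conversions of miR-107 limit what could be detected.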
